A study of Drosophila melanogaster with 9 samples.

Results

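Sry-alpha, dah, nullo, bnk and slam, genes that act in the cellularization of the Drosophila melanogaster embryo, were followed by gene symbol through tables of RNA recovered with the RNA-binding protein ORB2. All 5 were found among the 6440 listed genes. After the syncytial nuclear divisions, the fly embryo turns into a sheet of cells by growing plasma membrane inward between the nuclei, with actin and myosin gathered at the tip of the advancing furrow. The switch depends on transcription from the embryo's own genome, and nullo, bnk, Sry-alpha and slam are classical early zygotic genes. The gene dah was found through maternal-effect mutations, so the zygotic name fits it less well, and the tables hold no separate measure of maternal RNA with which to test the name.

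The RNA came from extracts of wild-type embryos collected 0 to 3 h after egg laying, with no strain named. Libraries fell into 3 groups of 3 by the sample titles. ORB2 IP libraries held RNA precipitated with the synthetic antibody fragment (Fab) anti-ORB2 E8, and control IP libraries RNA precipitated with anti-EGFR-C1, a Fab against a different protein. Input libraries had no precipitation. ORB2 belongs to the CPEB family, whose members bind mRNA and regulate its translation and stability. Each extract pooled embryos, and the labels do not say whether replicates came from separate collections, so p-values measure only the spread between libraries. Extracts were cleared by centrifugation before use, and no selection by stage is described.

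The labels were checked against orb2 and against stage markers. The orb2 mRNA averaged 8133 normalized counts in ORB2 IP, 45.6 in control IP and 58.7 in input. Of the maternal mRNAs listed as stage markers, 15 of 15 were present, and of the eggshell markers of follicle cells 0 of 10. Markers of differentiated tissues gave 2 of 11, how and Mef2. Normalized-count totals ran from 2625388 to 5368634. In ORB2 IP replicate 2 the lowest values clustered near 6.56 normalized counts, taken as the worth of 1 read, against 0.870 to 1.78 in the immunoprecipitates of ORB2 IP replicate 1 and control IP. No worth of 1 read was derived for ORB2 IP replicate 3 or for the inputs, whose depth is unknown.

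Per the Ensembl annotation (BDGP6.54), all 5 genes are protein-coding and lie on the plus strand. Sry-alpha (FBgn0003510) spans chromosome 3R, 30039719 to 30043071. It encodes an actin-organising protein of the furrow. The gene dah (FBgn0015926; X, 15328342 to 15331002) encodes a membrane-associated protein needed for continuous actin rings, and nullo (FBgn0004143; X, 7049476 to 7050321) a small protein that stabilises actin and junctions at the furrow base. The gene bnk (FBgn0004389; 3R, 31193362 to 31194389), or bottleneck, encodes a basic protein that restrains contraction of the actomyosin network until the furrows have passed the nuclei. The gene slam (FBgn0043854; 2L, 6372388 to 6377284), or slow as molasses, is required for membrane growth and for myosin at the furrow tip, and its mRNA is known to gather there with the protein.

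The members differ in length and structure. The single annotated transcripts of nullo and bnk are 846 and 1028 nt long and have no intron, and an intronless transcript of 1855 nt exists for Sry-alpha. Of the 6394 listed genes in the annotation, 10.2% have 1 exon in the transcript used here, which is the one with the longest 3′UTR. The transcripts of dah have 6 exons, and those of slam 2 or 3. Slam is the longest at 4117 nt, and 83.9% of listed genes are no longer than that, with a median of 2010 nt. All 5 have a 3′UTR below the median of 309 nt, namely 301 nt in dah, 217 nt in Sry-alpha, 120 nt in slam, 94 nt in nullo and 93 nt in bnk. No sequence of these genes was used here, and no binding motif was searched.

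The annotation also limits which reads can be assigned. A second Sry-alpha transcript of 3300 nt starts upstream and runs through the whole of Sry-beta, and an Sry-beta transcript ends with Sry-alpha, so 100% of the Sry-alpha exon bases are also annotated to Sry-beta on the same strand. Exons of dah share 219 nt, 9.31% of their length, with CG9114 on the opposite strand. Nullo lies in an intron of CG12541 and bnk in an intron of mesh, both on the opposite strand and with no exon overlap. Slam overlaps no annotated gene.

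**Figure D1:**
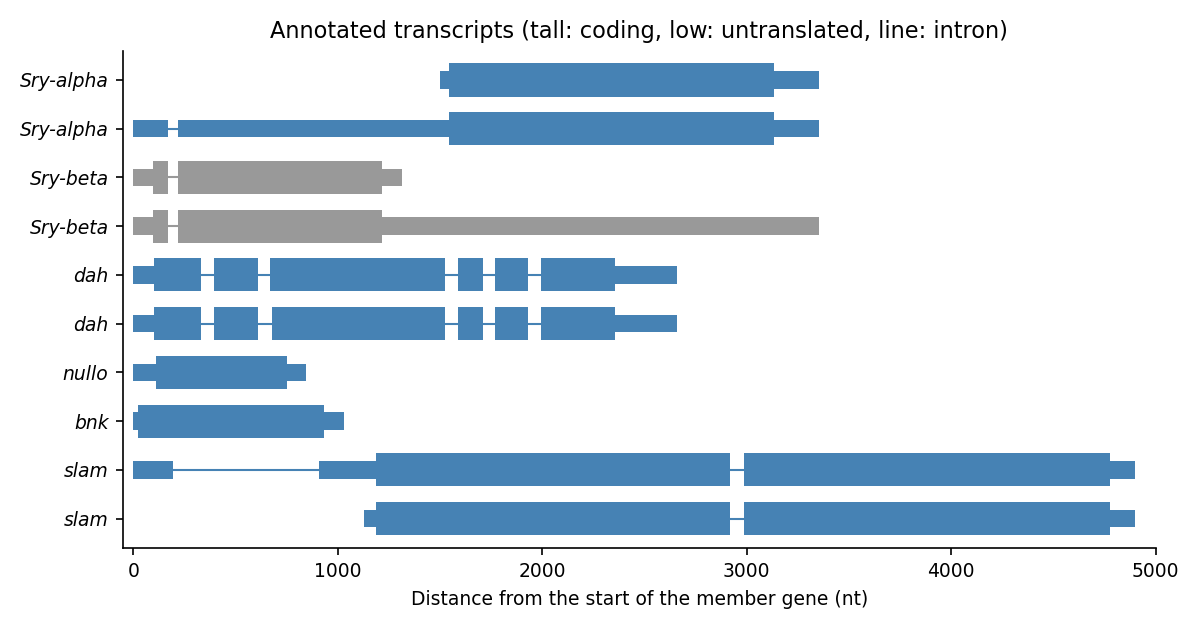
Annotated transcripts of the 5 members (blue) and of Sry-beta (grey), drawn to scale as distance in nt from the start of the member gene, with coding parts tall, untranslated parts low and introns as lines. The longer Sry-alpha and Sry-beta transcripts cover the same bases, and nullo and bnk each consist of 1 exon.

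Per length, dah and Sry-alpha were the most abundant members in input and nullo had the lowest mean in every group. TPM, which scales a transcript's reads by its length and by the library, allows levels to be compared between genes. In ORB2 IP the TPM averaged 40.1 ± 7.87 for dah, 32.5 ± 10.4 for bnk, 28.0 ± 8.81 for Sry-alpha, 27.5 ± 8.71 for slam and 9.88 ± 3.27 for nullo (SD, n = 3). The ranges of the first 4 overlapped, and the highest nullo value of 13.3 lay below the lowest slam value of 18.3. In control IP the order was bnk at 55.3 ± 21.2, dah at 45.9 ± 8.90, slam at 33.8 ± 27.3, Sry-alpha at 28.8 ± 2.67 and nullo at 12.1 ± 6.54 (SD, n = 3). Neighbours in this order overlapped except the last pair, with the highest nullo value of 18.9 TPM below the lowest Sry-alpha value of 25.7 TPM. In input, dah stood at 278 ± 90.5 TPM and Sry-alpha at 188 ± 33.3 TPM, with overlapping ranges, and slam followed at 35.6 ± 23.3, bnk at 27.9 ± 10.7 and nullo at 15.9 ± 5.02 (SD, n = 3). The lowest Sry-alpha input of 150 TPM exceeded the highest slam input of 60.8 TPM. The 5 members together held 114 to 174 TPM in ORB2 IP, 130 to 226 TPM in control IP and 417 to 658 TPM in input.

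**Figure D2:**
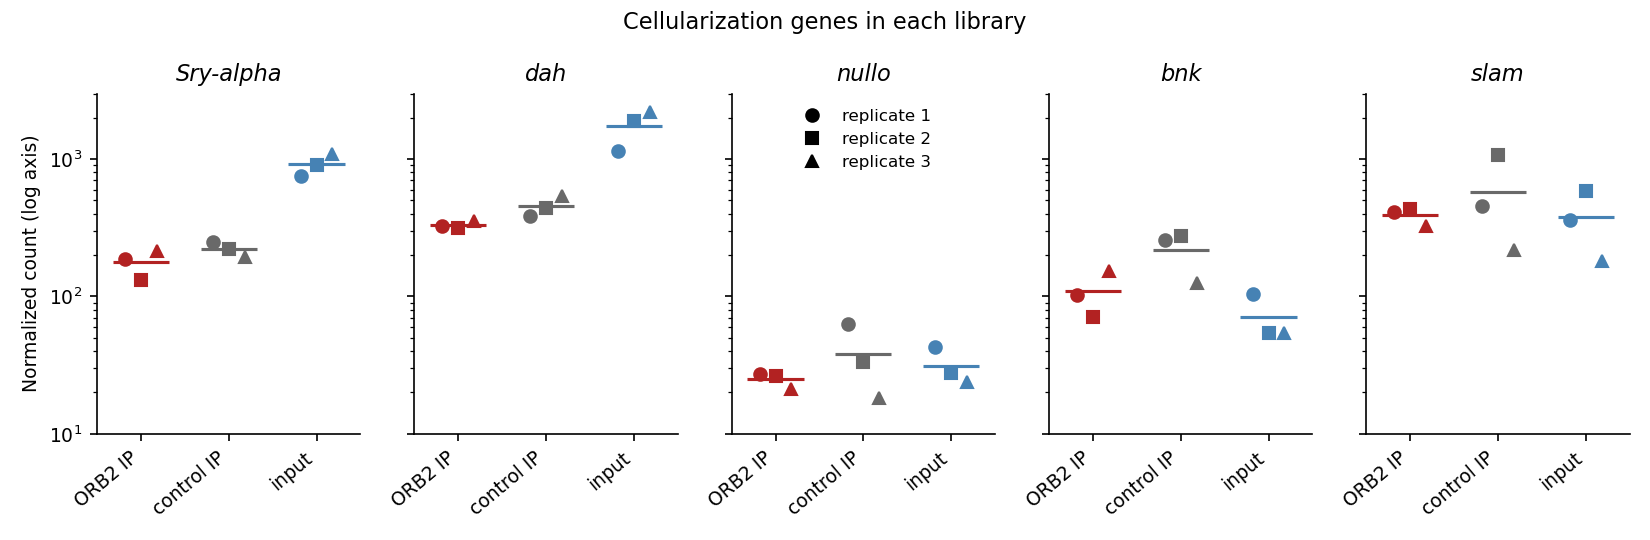
Normalized counts (log axis) of each member in the 9 libraries, with a point per library, its shape giving the replicate number and a line at the group mean. Sry-alpha and dah stood highest in the 3 inputs, bnk highest on average in control IP, and the groups overlapped for nullo and slam.

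Sry-alpha and dah were the members most depleted from both immunoprecipitates relative to input. Normalized counts of Sry-alpha were 188, 131 and 215 in ORB2 IP replicates 1 to 3, 248, 220 and 195 in control IP, against 757, 906 and 1083 in input. Every immunoprecipitate lay below every input, while the ORB2 IP and control IP values overlapped. For dah the values were 324, 314 and 354 in ORB2 IP, 387, 443 and 535 in control IP, against 1144, 1899 and 2203 in input. Here too every immunoprecipitate lay below every input, and in addition each ORB2 IP library lay below each control IP library. For the level of a transcript in a pooled extract, the number of cells or embryos of a stage and the RNA per cell cannot be told apart. That limit concerns levels, and why both immunoprecipitates lay below input was not tested.

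In ORB2 IP against input, Sry-alpha was 5.17-fold lower, a log2 fold change of −2.37 (SE 0.26; limma Benjamini-Hochberg adjusted p 4.8e-04). The log2 fold change of dah was −2.35 (SE 0.27; limma Benjamini-Hochberg adjusted p 6.6e-04), or 5.09-fold lower. They ranked 20 and 22 from the lowest of 6344 tested genes. Both were among the 2 members called lower and 0 called higher in this comparison, where 25.1% of all tested genes were called lower and 26.0% higher. Groups without overlap, as in these 2 members, were found for 32.1% of tested genes on the lower side and 30.0% on the higher side. The median of the 5 members was −0.28, beside −0.03 for all tested genes.

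In control IP against input the log2 fold change was −2.04 for Sry-alpha (SE 0.20; limma Benjamini-Hochberg adjusted p 2.7e-04) and −1.90 for dah (SE 0.26; limma Benjamini-Hochberg adjusted p 3.8e-04). The depletion was thus present with the unrelated Fab as well. This comparison shares its inputs with the one above. Of all tested genes 32.3% were called lower and 33.5% higher, and of the members 2 were lower and 1, bnk, higher. These 3 members also had groups without overlap, as did 37.1% of tested genes on the lower side and 36.1% on the higher side. The member median was 0.15, beside 0.01 for all tested genes.

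Between ORB2 IP and control IP neither gene passed the test. The log2 fold change of Sry-alpha was −0.33 (SE 0.21, 95% interval −0.80 to 0.13; limma Benjamini-Hochberg adjusted p 0.22) and that of dah −0.45 (SE 0.17, 95% interval −0.83 to −0.07; limma Benjamini-Hochberg adjusted p 0.056). With the replicate number as a block, dah was called (limma Benjamini-Hochberg adjusted p 0.031). So it was without ORB2 IP replicate 3 (−0.50), with equal totals (−0.81) and with a length-related trend removed (−0.63; limma Benjamini-Hochberg adjusted p 0.014). That trend was fitted in each library against each gene's ratio of normalized count to TPM, a stand-in for transcript length and not the annotated length. The ORB2 IP replicate 2 value of Sry-alpha corresponded to about 20.0 reads. In this comparison 28.3% of tested genes had all ORB2 IP values below all control IP values, as dah did, and 27.6% had all of them above, which no member did.

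The gene bnk showed another order, with control IP highest. Its normalized counts were 103, 71.3 and 153 in ORB2 IP, 259, 274 and 125 in control IP, against 104, 54.0 and 53.9 in input. All 3 control IP values lay above all 3 inputs, while the ORB2 IP values overlapped both other groups. Relative to input, bnk in control IP was 3.05-fold higher, at a log2 fold change of 1.61 (SE 0.37; limma Benjamini-Hochberg adjusted p 0.0041). For ORB2 IP against input the estimate was 0.62 (SE 0.38, 95% interval −0.22 to 1.46; limma Benjamini-Hochberg adjusted p 0.19), not past the test. Without input replicate 1, in which bnk was highest, this value was 0.93 and was called.

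Against control IP, bnk was 1.98-fold lower in ORB2 IP, a log2 fold change of −0.99 (SE 0.33; limma Benjamini-Hochberg adjusted p 0.031). It was the only member called there, 1 of 5 lower and 0 higher, where 21.6% of tested genes were called lower and 20.8% higher. The member median was −0.43, beside 0.00 for all tested genes, and 5 of 5 members had estimates below 0. The bnk call was lost with the replicate block (limma Benjamini-Hochberg adjusted p 0.065) and in 10 of 18 alternatives in all. Those included leaving out ORB2 IP replicate 1 (−0.98) or 2 (−0.72) or control IP replicate 1 (−0.83) or 2 (−0.79), and removing the length-related trend (−0.54). At about 6.56 normalized counts per read, the ORB2 IP replicate 2 value of bnk corresponded to about 10.9 reads.

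**Figure D3:**
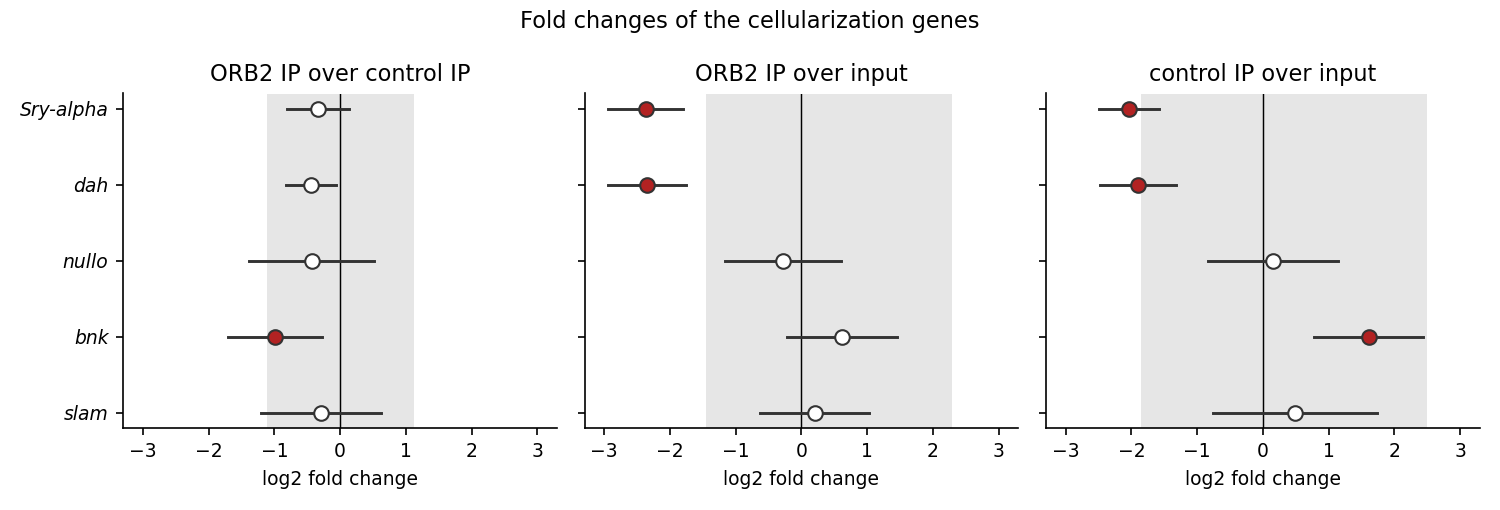
Log2 fold change of each member with its 95% interval in the 3 comparisons, filled red where the limma Benjamini-Hochberg adjusted p was below 0.05. The grey band spans the 5th to the 95th percentile of all tested genes, and only Sry-alpha and dah lie outside it, in both comparisons with input.

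A ratio of 2 transcripts within a library does not depend on how the libraries were scaled. The bnk to Sry-alpha TPM ratio was 1.05, 1.05 and 1.38 in ORB2 IP, 2.02, 2.40 and 1.23 in control IP, against 0.266, 0.115 and 0.0961 in input. Each of the 6 immunoprecipitates thus stood above each input. Values of dah over Sry-alpha moved far less, at 1.28 to 1.85 in ORB2 IP, 1.20 to 2.11 in control IP and 1.16 to 1.62 in input. This pair was chosen after its values were seen, and no test was run on it.

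Sry-beta, a zinc-finger gene whose longer transcript covers Sry-alpha, changed less than Sry-alpha. It averaged 210 normalized counts in ORB2 IP, 281 in control IP and 416 in input. Its log2 fold change was −0.99 (SE 0.23; limma Benjamini-Hochberg adjusted p 0.0067) in ORB2 IP against input and −0.57 (SE 0.20; limma Benjamini-Hochberg adjusted p 0.030) in control IP against input, the second lost without control IP replicate 2 (−0.52) or 3 (−0.50) or input replicate 3 (−0.47). Between ORB2 IP and control IP the estimate stood at −0.43 (SE 0.20; limma Benjamini-Hochberg adjusted p 0.097), called with the replicate block (limma Benjamini-Hochberg adjusted p 0.042). The Sry-alpha to Sry-beta TPM ratio was 0.547, 0.546 and 0.736 in ORB2 IP, 0.541, 0.607 and 0.556 in control IP, against 1.38, 1.72 and 1.65 in input. The immunoprecipitates therefore held Sry-alpha at a lower level than Sry-beta and the inputs at a higher one. How reads from the shared transcript were divided between the genes is not given in the sources used here.

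**Figure D4:**
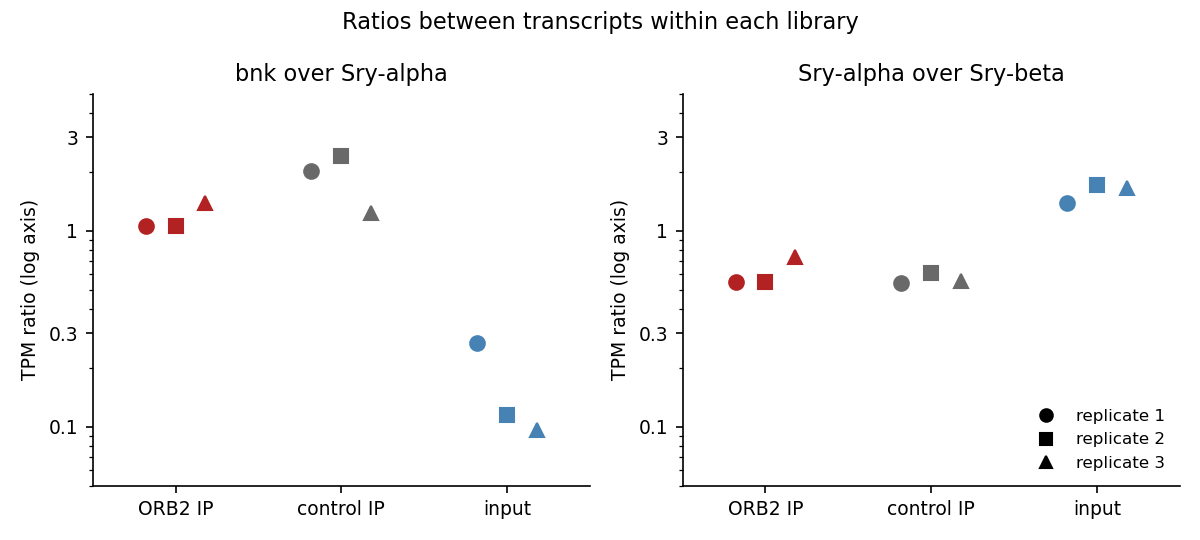
TPM ratios (log axis) of bnk over Sry-alpha and of Sry-alpha over Sry-beta in each library, with the point shape giving the replicate number. All 6 immunoprecipitates lie above the inputs in the first ratio, whose highest input is 0.266, and below them in the second, whose lowest input is 1.38.

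Sry-delta and CG9114 were also lower in ORB2 IP than in input, by less than Sry-alpha and dah. Sry-delta, the next zinc-finger gene of the cluster with no shared exon, averaged 208 normalized counts in ORB2 IP, 417 in control IP and 541 in input. It was 2.00-fold lower in ORB2 IP than in control IP (SE 0.16 on the log2 scale; limma Benjamini-Hochberg adjusted p 0.0016). CG9114, which overlaps dah on the opposite strand, had log2 fold changes of −1.02 (SE 0.25) in ORB2 IP against input and −1.27 (SE 0.26) in control IP against input, with limma Benjamini-Hochberg adjusted p of 0.0082 and 0.0020.

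Nullo was the least abundant member and did not pass any test. Its normalized counts were 27.4, 26.2 and 21.3 in ORB2 IP, 62.8, 33.4 and 18.3 in control IP, against 42.7, 27.8 and 23.6 in input. The 3 groups overlapped, and replicate 1 was the highest and replicate 3 the lowest in each. The log2 fold changes were −0.43 (SE 0.44, 95% interval −1.38 to 0.52) in ORB2 IP against control IP, −0.28 (SE 0.40, −1.16 to 0.60) in ORB2 IP against input and 0.15 (SE 0.44, −0.84 to 1.14) in control IP against input. Each interval includes changes in both directions, and real differences of such sizes could have been missed. The ORB2 IP replicate 2 value corresponded to about 4.00 reads, and that of control IP replicate 1 to about 49.7.

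Slam varied most of the members between replicates of control IP and of input. Its normalized counts were 412, 434 and 324 in ORB2 IP, 452, 1067 and 218 in control IP, against 358, 588 and 181 in input. Replicate 2 was the highest and replicate 3 the lowest in all 3 groups, and the groups overlapped. In control IP the highest library exceeded the lowest 4.90-fold. Of 5760 genes averaging at least 50 normalized counts, 0.104% had a spread as large, and the median spread was 1.28-fold. In ORB2 IP the slam spread was 1.34-fold, beside a median of 1.44-fold. The log2 fold changes were −0.29 (SE 0.42, 95% interval −1.20 to 0.63) in ORB2 IP against control IP, 0.20 (SE 0.37, −0.63 to 1.03) in ORB2 IP against input and 0.49 (SE 0.56, −0.76 to 1.74) in control IP against input, none past the test. When control IP replicate 2 was left out, the first of these was 0.30 and the last −0.10.

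An identical order of the 3 replicate numbers in all 3 groups, as seen for nullo and slam, occurred in 4.70% of genes in the normalized counts. In TPM it held for nullo and not for slam, whose ORB2 IP values were 35.7, 28.4 and 18.3 TPM in replicates 1 to 3, and for 3.14% of genes. None of the 22 other early zygotic genes showed it in either table. The labels do not say whether libraries with the same number share an extract.

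The other early zygotic genes were compared next. From a list of 37 patterning, sex-determination and cellular-blastoderm genes, 22 were listed. Relative to input, 12 of them were called higher and 3 lower in control IP, with a median log2 fold change of 1.05. These are 54.5% and 13.6% of the list, beside 33.5% and 32.3% of all tested genes. The numbers were 8 and 3 with equal totals, beside 1403 higher and 2872 lower of all 6377 tested genes. TPM with a pseudocount of 0.1 gave 7 higher, beside 1161 of 6427. A mean of at least 50, which fewer genes of the list reached, left 4 and 1, beside 1989 and 1883 of 5704. The largest increases were those of halo, which controls lipid-droplet transport during cellularization, at 3.78 (SE 0.44), Brd, an inhibitor in the Notch pathway, at 2.74 (SE 0.46), and zen, a dorsal homeodomain factor, at 2.62 (SE 0.48). The decreases were tsg, an extracellular regulator of BMP signalling, at −2.01 (SE 0.47), Ance at −1.65 (SE 0.31) and term at −1.49 (SE 0.23). For ORB2 IP against input 7 were higher and 2 lower, with a median of 0.74. The 31.8% higher lay near the 26.0% of all tested genes, and the 9.09% lower stood beside 25.1%. With equal totals the direction turned, at 2 higher and 4 lower, beside 599 higher and 3206 lower of all 6354 tested genes. A mean of at least 50, which fewer genes of the list reached, left 3 and 1, beside 1551 and 1535 of 5750. The gap gene hb, which is also maternal, led at 2.55 (SE 0.45), with halo at 2.38 (SE 0.49) and Brd at 2.06 (SE 0.56), and tsg at −2.14 (SE 0.42) and term at −1.81 (SE 0.25) were the 2 lower genes. The number called higher was 4 without ORB2 IP replicate 3 or input replicate 3, each of which ended the Brd call (1.76 and 1.74), and 11 without input replicate 1. Leaving out single libraries gave 1120 to 1862 higher over all tested genes.

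Against control IP, 3 of the 21 tested zygotic genes were lower in ORB2 IP and 1 was higher, with a median of −0.40 and 18 estimates below 0. Lower genes made up 14.3% of the list and higher ones 4.76%, beside 21.6% and 20.8% of all tested genes. Equal totals gave 10 lower and 0 higher, beside 2182 and 383 of all 6304 tested genes. Equal upper quartiles and the replicate block gave 2 higher each, beside 1736 of 6316 and 1523 of 6318. All 9 libraries in 1 fit gave 1 lower, beside 891 of 6318. Those lower were zen at −1.45 (SE 0.40), halo at −1.40 (SE 0.30) and sisA, an X-chromosome signal in sex determination, at −0.98 (SE 0.35). Sxl, the sex-determination RNA-binding protein, was higher at 0.80 (SE 0.17). The sisA call was lost with the replicate block (limma Benjamini-Hochberg adjusted p 0.066) and held in 7 of 18 alternatives, while halo was called in 18 of 18. Zen was not called without ORB2 IP replicate 2 (−1.20) or control IP replicate 1 (−1.23). The number of zygotic genes called lower was 1 without either of these libraries and 8 without ORB2 IP replicate 3. Over all tested genes, 967 to 1573 were called lower when single libraries were left out. Normalized counts of halo were 274, 329 and 670 in ORB2 IP, 1236, 1140 and 786 in control IP, against 165, 59.5 and 42.1 in input. As for bnk, ORB2 IP replicate 3 was the highest of its group, control IP replicate 3 the lowest and input replicate 1 the highest.

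These single libraries stood out for the list as well. Among the 22 zygotic genes the highest ORB2 IP library was replicate 3 for 15 genes, the lowest control IP library was replicate 3 for 17, and the highest input was replicate 1 for 17. Over all genes the corresponding shares for the highest library were 34.5% for ORB2 IP replicate 3 and 37.7% for input replicate 1. No share for the lowest library was computed over all genes. Control IP replicate 3 was the highest of its group for 2 of the 22, beside 33.2% of all genes. The 15 maternal mRNAs summed to 3204, 2133 and 1601 TPM in ORB2 IP and 1473, 1666 and 1448 TPM in control IP. In input they summed to 3127, 4945 and 3628 TPM. ORB2 IP replicate 3, control IP replicate 3 and input replicate 1 were thus the lowest of their groups. In normalized counts these libraries were the lowest for 9, 9 and 7 of the 15 genes, and input replicate 1 was the highest for 6. Without ORB2 IP replicate 3, bnk stood at −1.27 in ORB2 IP against control IP and was called, and without control IP replicate 3 it stood at −1.35 and was called. Its value in control IP against input was 1.92 without input replicate 1 and 1.97 without control IP replicate 3, both called.

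The mostly maternal machinery with which the members work held genes in both directions in every comparison. Of 41 genes, among them those for myosin, septins, actin regulators, junctions and membrane traffic, 39 were listed and tested. Between ORB2 IP and control IP 9 were lower in ORB2 IP and 10 higher, with a median of 0.02. The shares of 23.1% and 25.6% lay near the 21.6% and 20.8% of all tested genes. Scaling moved the split to 14 lower and 3 higher with equal totals, beside 2182 and 383 of all 6304 tested genes. Equal upper quartiles gave 5 and 12, beside 999 and 1736 of 6316. TPM gave 4 and 9, beside 712 and 1356 of 6365 (pseudocount 1). Removing the length-related trend left 11 and 2, beside 1146 and 1071 of 6318. All 9 libraries in 1 fit gave 5 higher, beside 890 of 6318. The lower genes were led by sqh, the regulatory light chain of non-muscle myosin, at −1.21 (SE 0.19), chic, encoding profilin, at −1.07 (SE 0.24), and tsr, encoding cofilin, at −1.03 (SE 0.24). Sec5 of the exocyst at 1.28 (SE 0.34) and the golgin gene lva at 1.12 (SE 0.26) were among the higher genes. With the length-related trend removed, the calls of tsr (−0.44) and lva (0.39) were lost. When single libraries were left out, the lower genes of the list numbered as few as 5 (without ORB2 IP replicate 2, control IP replicate 2 or control IP replicate 3). The higher genes numbered 5 to 6 without ORB2 IP replicate 1, control IP replicate 3 or ORB2 IP replicate 2. Calls over the whole table also moved, to 967 to 1573 lower and 717 to 1493 higher without single libraries.

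In ORB2 IP against input 11 machinery genes were lower and 15 higher, with a median of 0.27. These are 28.2% and 38.5% of the list, beside 25.1% and 26.0% of all tested genes. The numbers were 16 and 5 with equal totals, beside 3206 and 599 of all 6354 tested genes. In TPM they were 11 and 9, beside 2124 and 965 of 6433 (pseudocount 1). Among the higher genes, alpha-Cat of the adherens junction rose by 2.32 (SE 0.70) and the actin elongation factor ena by 2.29 (SE 0.41). Sec5 at −1.34 (SE 0.37), Septin5 at −1.18 (SE 0.24) and arm, the fly beta-catenin, at −1.16 (SE 0.25) were the lowest. Calls of alpha-Cat were lost without ORB2 IP replicate 2 (2.23), input replicate 2 (1.54) or input replicate 3 (2.09), and that of Sec5 without input replicate 2 (−1.07). The list had 9 higher genes without ORB2 IP replicate 2 or input replicate 3, and 7 lower genes without input replicate 3. Whole-table calls were 1120 to 1862 higher without single libraries, and 891 lower without input replicate 3. Control IP against input gave 8 lower and 12 higher genes, with a median of 0.29, or 20.5% and 30.8% of the list beside 32.3% and 33.5% of all tested genes. The numbers were 18 and 10 with equal totals, beside 2872 and 1403 of all 6377 tested genes. In TPM they were 18 and 8, beside 3193 and 1173 of 6427 (pseudocount 1). With the length-related trend removed they were 6 and 19, beside 2086 and 2067 of 6355. Without control IP replicate 1 there were 5 lower, where leaving out single libraries gave 1714 to 2259 lower over all genes. In control IP against input chic rose by 3.12 (SE 0.34), alpha-Cat by 2.58 (SE 0.72) and ena by 2.37 (SE 0.40). Sec5 was at −2.62 (SE 0.33) and the polarity gene baz at −1.54 (SE 0.24).

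**Figure D5:**
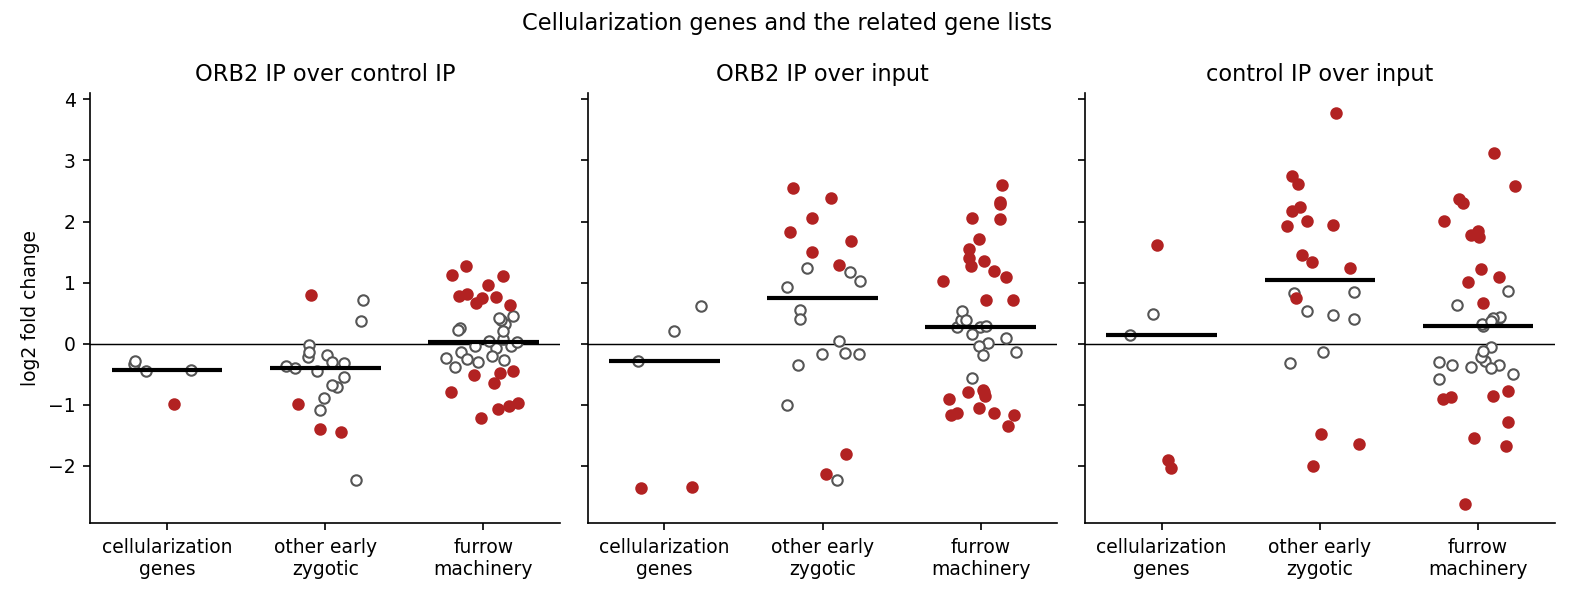
Log2 fold changes of the 5 cellularization genes, the other early zygotic genes and the furrow machinery in the 3 comparisons, with a point per gene, red where the limma Benjamini-Hochberg adjusted p was below 0.05, and a bar at the list median. In control IP over input the zygotic list has its median at 1.05, and Sry-alpha and dah lie near −2.04 and −1.90.

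The pattern across libraries, taken from the same normalized counts, restated the grouping above. Over the 9 libraries, log2 normalized counts of Sry-alpha and dah had a Pearson correlation of 0.97, while Sry-alpha and bnk were at −0.52 and the other 8 pairs ran from −0.62 to 0.46. These libraries share 3 groups and their scaling, so the values describe the profiles only. Among genes averaging at least 50 normalized counts, the profiles nearest to Sry-alpha were those of Su(P), hll and loqs (0.99 each), and to dah those of hpo, Ptpmeg2 and CG7182 (0.99 to 1.00). Closest to bnk was zen (0.98), followed by Surf6 and CG7694 (0.96 each). The nearest profiles were less alike for nullo, with CG8079 at 0.87, CG4768 at 0.84 and dpn at 0.80, and for slam, with DAAM at 0.81, CG9578 at 0.79 and disp at 0.72.

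The scaling of the libraries moved all genes together. Whole-table calls in ORB2 IP against control IP were 1316 higher and 1366 lower as deposited, 383 and 2182 with equal totals (median of all genes −0.35), 1736 and 999 with equal upper quartiles (0.15), and 1356 and 712 in TPM (0.24). Against input they were 1648 higher and 1593 lower in ORB2 IP as deposited, 599 and 3206 with equal totals (−0.81), and 965 and 2124 in TPM (−0.42). Control IP calls against input were 2126 and 2050 as deposited, 1403 and 2872 with equal totals (−0.41), and 1173 and 3193 in TPM (−0.60). Relative to these medians, Sry-alpha in ORB2 IP against input stood at −2.34 as deposited, −2.34 with equal totals and −2.31 in TPM. For bnk in control IP against input the corresponding values were 1.60, 1.60 and 1.54. The bnk value in ORB2 IP against control IP stood at −0.99, −0.99 and −0.96. A common factor per library shifts all genes alike, so near-equal values under these scalings were fixed in advance and show no robustness. With the length-related trend removed, which is no such factor, the last bnk value was −0.52 relative to the median.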

How the data were processed

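RNA immunoprecipitation libraries (rRNA-depleted, stranded, paired reads of 125 nt, per the labels) were measured in 3 groups of 3. The authors deposited TPM per gene, and normalized counts, a signal whose scale the labels do not define. Tools named in the submitters' processing notes were DESeq2 1.42.1, Salmon 1.9.1 and Trim Galore 0.6.5, with roles not stated. The authors' genome build is not given in the sources used here. Every listed gene had an input TPM of at least 1.00, so genes absent from input lie outside the tables. Some symbols are date-like in the deposited tables (Septin5), and identifiers were matched to Ensembl release 115.

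Each comparison was fitted on its 6 libraries with limma 3.58.1 (trend, R 4.3.3) on log2(normalized count + 1), for genes with a mean of at least 10. Tests were two-sided, Benjamini-Hochberg adjusted over all genes tested and called below 0.05. Fold changes are on this scale and understate changes of low genes. Named genes were the members, orb2, overlapping and neighbouring genes, the 3 nearest profiles per member, and the 3 largest called changes per direction in the lists. Results for some genes of the furrow list are not reported here. The members and lists were chosen with earlier results of these data known.

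Same-numbered libraries deviated together between ORB2 IP and control IP (correlations of 0.10, 0.23 and 0.28 across genes, each over 0.1), which passes the limit set for pairing, from the data and not from the labels. The fits reported have no block, and values with the replicate number as a block stand beside them where a call changed. Approximate read numbers cover counting error only. Figures used matplotlib 3.10.9 in Python 3.11.15.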

Additional observations from a re-analysis of the deposited data

How the results depend on the processing

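Each comparison was recomputed under 18 alternatives. Of the 267 resulting member values, 233 kept direction and side of the threshold, 10 lost and 6 gained a call, and 18 changed sign, all of them in values that had not passed the test. Sry-alpha and dah stayed lower in both immunoprecipitates than in input, and bnk higher in control IP than in input, in 18 of 18 alternatives.

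In ORB2 IP against control IP, 1 member was called lower. The number was 3 with equal totals (Sry-alpha, dah and bnk), 0 with equal upper quartiles, a TPM pseudocount of 0.1, all 9 libraries in 1 fit or no mean-variance trend, and 0 to 2 when single libraries were left out. Genes called lower, 1366 in all, became 2182 with equal totals, 712 and 685 in TPM (pseudocounts 1 and 0.1), and 891 with all 9 libraries. Leaving out single libraries gave 967 to 1573. Genes called higher, 1316 in all, became 383 with equal totals and 717 to 1493 without single libraries. Members called higher in ORB2 IP against input ran from 0 to 1 when single libraries were left out. Genes called lower (1593) became 3206 with equal totals and 891 to 1816 without single libraries, and genes called higher (1648) became 599 with equal totals and 965 and 911 in TPM. In control IP against input, genes called lower (2050) became 3193 and 3176 in TPM, and genes called higher (2126) became 1403 with equal totals and 1173 and 1161 in TPM. The cause of these shifts was not tested.

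Changes of sign were these. In ORB2 IP against control IP, nullo was at 0.11 with the length-related trend removed and −0.86 to 0.0036 without single libraries, slam at −0.84 to 0.30 without single libraries, and CG9114 at −0.10 with equal totals. Against input, bnk in ORB2 IP was at −0.15 with equal totals. Slam there was at −0.58 with equal totals, −0.20 in TPM with either pseudocount, −0.10 with the length-related trend removed and −0.24 to 0.60 without single libraries. The control IP value of nullo against input was at −0.26 with equal totals, −0.46 and −0.50 in TPM, −0.60 with the length-related trend removed and −0.29 to 0.58 without single libraries. Slam there was at −0.16 and −0.17 in TPM and −0.10 to 1.04 without single libraries.

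With the replicate block, 1523 genes were higher and 1501 lower in ORB2 IP against control IP, and dah took the place of bnk among the members called, as it did with the length-related trend removed. Against input, same-numbered libraries did not each pass the limit of 0.1 set for pairing. Correlations of same-numbered libraries were −0.19, 0.09 and 0.18 for ORB2 IP, not each highest with its own number, and 0.04, 0.18 and 0.18 for control IP, each highest with its own number. The block gave 1554 higher and 1421 lower genes for ORB2 IP, with 2144 and 2092 for control IP, and changed no member call. Depth limits nullo most, with about 4.00 reads in ORB2 IP replicate 2.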
